A study of Saccharomyces cerevisiae with 6 samples.

Results

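The expression of 10 genes of thiamine (vitamin B1) synthesis and uptake was compared between a wine yeast and a strain evolved from it in the cold. The rule that picked the genes used their names and no measured value, though it was set with earlier results of these data known. The genes were THI4, THI20, THI6 and THI80 of synthesis, THI7 and PHO3 of uptake, the regulators THI2 and THI3, and PET18. The remaining gene, THI73, encodes a permease whose substrate is not established. Each of the 10 had a single probe set on the array, out of 5449 S. cerevisiae genes measured with 5498 probe sets. All 10 lay above background on all 6 arrays, so none was lost to a filter on low values.

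RNA came from 3 independent cultures of P5, a commercial S. cerevisiae wine strain, and 3 of P5-EM. P5-EM is a single strain that was isolated after a mixed culture of wine strains, mutagenised with ethyl methanesulfonate, had been passaged for many generations in the synthetic must SM1 at 12 °C. It carries point mutations relative to P5, GAA1 being one of the mutated genes. All 6 cultures fermented SM1 at 12 °C and were collected once, in exponential growth. The vitamins of SM1 came from a yeast nitrogen base and included thiamine. With 1 collection time, the strain and the stage of the fermentation cannot be told apart. Each array reads a whole culture, so a change in all cells and one in some of them cannot be told apart either.

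Thiamine pyrophosphate is the cofactor of pyruvate decarboxylase, the enzyme that opens the way from pyruvate to ethanol, and of transketolase and several other enzymes. Yeast builds thiamine by joining a pyrimidine and a thiazole ring made on separate branches, or takes it up from the medium. When the medium holds thiamine, most genes of the pathway are repressed, and when it runs short they are induced together through the factors encoded by THI2, THI3 and PDC2.

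The level of a gene is given here as log2 signal, the log2 of a normalized hybridisation signal, and a difference is P5-EM minus P5 on that scale, so that a difference of 1 is 2-fold. Levels are compared between arrays for 1 gene and not between genes. Of the 5498 probe sets, 763 had an adjusted p under 0.05 in limma's test and are said to pass it, 335 higher and 428 lower in P5-EM, and 216 of them (73 higher, 143 lower; 116 and 123 after quantile normalization) differed at least 2-fold. None passed without P5 replicate 2 or 3 (1318 and 1222 at an unadjusted p under 0.05, with 2 and 0 by the methods' t-test). P5-EM replicate 1 stood apart from the other P5-EM arrays: across all probe sets it correlated with them at r = 0.967 and 0.953, while those correlated with each other at r = 0.990 and the P5 arrays with each other at 0.992 to 0.996. For results that rest on this array, the value without it is given too.

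Of the 10 thiamine genes, PHO3 was higher in P5-EM, THI73 was lower, and the other 8 did not pass the test. The 4 synthesis genes and the main transporter gene THI7 all had small negative differences, of 0.25 to 0.45 in size, and none of these passed. So 2 of 10 genes passed, against a background of 13.9% of all probe sets (6.09% higher, 7.78% lower). One, PHO3, was past 2-fold, a size that with the test was reached by 3.93% of all probe sets. The median difference of the 10 genes was -0.27, and that of all probe sets was -0.04.

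**Figure D1:**
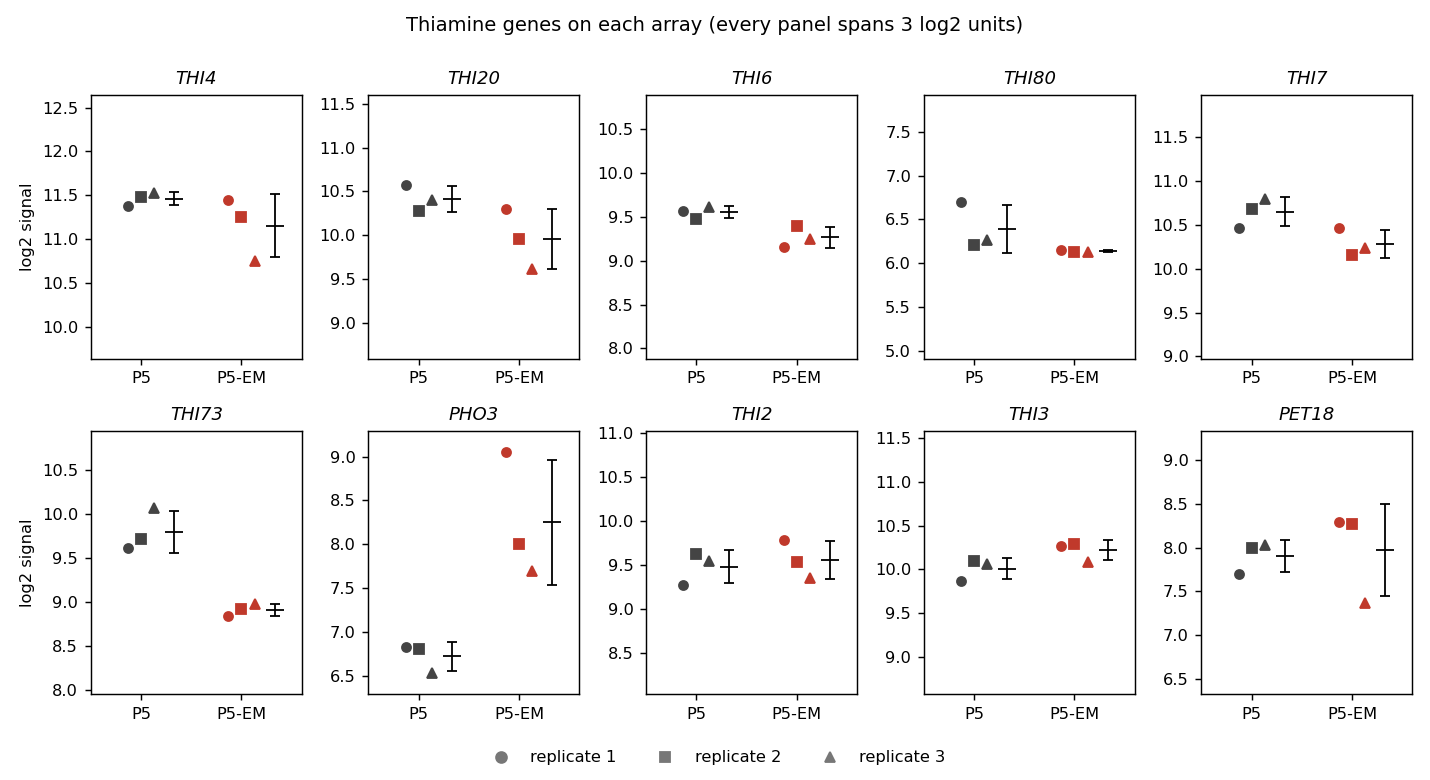
Log2 signal (vertical axis) of each of the 10 genes on the 3 P5 arrays (grey) and the 3 P5-EM arrays (red); symbols mark the replicate, and the bar beside them is the mean with its SD, n = 3. PHO3 lies between 6.54 and 6.83 in P5 and between 7.69 and 9.05 in P5-EM, and THI73 lies lower on every P5-EM array than on any P5 array.

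PHO3 encodes an acid phosphatase that is repressed by thiamine and that frees thiamine from its phosphates at the cell surface, so that it can be taken up. Its log2 signal was 6.83, 6.81 and 6.54 in P5 replicates 1 to 3, and 9.05, 8.00 and 7.69 in P5-EM replicates 1 to 3. The strains did not overlap, the lowest P5-EM array lying 0.86 above the highest P5 array, and P5-EM replicate 1 was well above the other P5-EM arrays. The mean rose from 6.73 ± 0.16 to 8.25 ± 0.71 (SD, n = 3), a difference of 1.52 (SE 0.34, 95% interval 0.72 to 2.33, adjusted p = 0.0357, limma) or 2.88-fold. In this respect PHO3 was far out among the genes of the array, since 99.6% of all probe sets had a lower difference. Without P5-EM replicate 1 the difference was 1.12 (adjusted p = 0.00219). The call ended when P5 replicate 1, 2 or 3 or P5-EM replicate 2 was left out (adjusted p = 0.106, 0.118, 0.142 and 0.0812), and with the methods' t-test (adjusted p = 0.122).

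THI73 encodes a permease of the plasma membrane whose substrate is not established and which is repressed by thiamine. In P5 replicates 1 to 3 its log2 signal was 9.62, 9.71 and 10.06, and in P5-EM replicates 1 to 3 it was 8.84, 8.91 and 8.97. Every P5-EM array lay below every P5 array, with a gap of 0.64, and the P5-EM arrays were close to each other. The mean fell from 9.80 ± 0.24 to 8.91 ± 0.07 (SD, n = 3). This was a difference of -0.89 (SE 0.15, 95% interval -1.24 to -0.54, adjusted p = 0.0177, limma), which left P5-EM with 53.9% of the P5 signal. P5-EM replicate 1 did not carry this result, as the difference without it was -0.85 (adjusted p = 0.00634). The call ended when P5 replicate 2 or 3 or P5-EM replicate 2 was left out (adjusted p = 0.0806, 0.0799 and 0.0641), and with the methods' t-test (adjusted p = 0.0648). PHO3 and THI73 thus moved in opposite directions, both being genes that thiamine is known to repress.

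THI7, the gene of the main thiamine transporter of the plasma membrane, did not pass. Its log2 signal was 10.47, 10.69 and 10.80 in P5 and 10.46, 10.16 and 10.23 in P5-EM, in replicate order. The strains were separated by 0.01 only, P5-EM replicate 1 lying just under P5 replicate 1. The difference was -0.37 (SE 0.14, 95% interval -0.70 to -0.03, adjusted p = 0.122, limma), and without P5-EM replicate 1 it was -0.45 and passed (adjusted p = 0.0336).

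**Figure D2:**
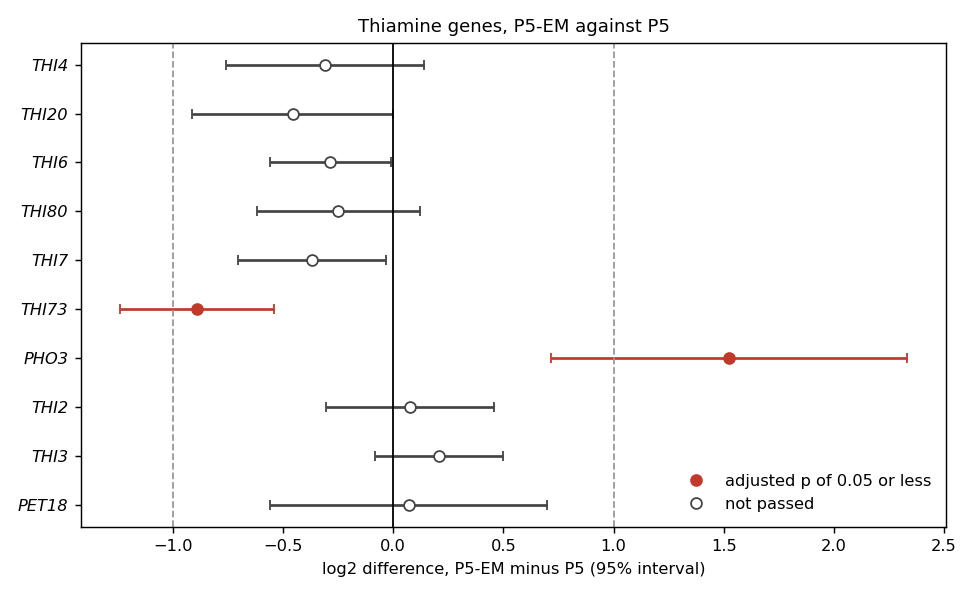
Difference in log2 signal, P5-EM minus P5 (horizontal axis), of each of the 10 genes with its 95% interval from limma, n = 3 per strain; filled red points had an adjusted p under 0.05, and dashed lines mark 2-fold. PHO3 (1.52) and THI73 (-0.89) passed, and the intervals of the other 8 genes lie inside the 2-fold lines.

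Among the synthesis genes, THI4 makes the thiazole ring of the molecule in a reaction in which the enzyme gives up a sulfur atom of its own. Its log2 signal was 11.38, 11.48 and 11.52 in P5 and 11.45, 11.25 and 10.76 in P5-EM. P5-EM replicate 1 was within the P5 range and replicate 3 well below it. The difference of -0.31 (SE 0.19, 95% interval -0.76 to 0.14, adjusted p = 0.283, limma) was within the spread between the P5-EM arrays, whose SD was 0.36 against 0.07 in P5. It shrank to -0.11 without P5-EM replicate 3 (adjusted p = 0.566) and was -0.46 without P5-EM replicate 1 (adjusted p = 0.0634).

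THI20 encodes the kinase that phosphorylates the pyrimidine ring. It read 10.57, 10.27 and 10.40 in P5 and 10.30, 9.96 and 9.62 in P5-EM. As for THI4, P5-EM replicate 3 was the lowest array and P5-EM replicate 1 overlapped with P5. The difference was -0.45 (SE 0.19, 95% interval -0.91 to 0.00, adjusted p = 0.146, limma). Without P5-EM replicate 1 it was -0.62 and passed (adjusted p = 0.0183), whereas without P5-EM replicate 3 it shrank to -0.29 (adjusted p = 0.252).

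THI6 joins both rings into thiamine phosphate, and THI80 adds the pyrophosphate that makes the cofactor. THI6 had a log2 signal of 9.57, 9.48 and 9.61 in P5 and of 9.16, 9.40 and 9.24 in P5-EM. All P5-EM arrays were lower, by a gap of 0.08, and the difference was -0.29 (SE 0.12, 95% interval -0.56 to -0.01, adjusted p = 0.134, limma). THI80 read 6.70, 6.20 and 6.26 in P5 against 6.15, 6.13 and 6.13 in P5-EM. Its P5-EM arrays were nearly equal (SD 0.01), while P5 replicate 1 was higher than all others. The difference of -0.25 (adjusted p = 0.290, limma) fell in size to -0.09 without that array (adjusted p = 0.620).

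Neither of the 2 regulators passed the test. THI2, an activator of the pathway, read 9.27, 9.63 and 9.55 in P5 and 9.79, 9.54 and 9.35 in P5-EM, and the strains overlapped. Its difference was 0.08 (95% interval -0.31 to 0.46, adjusted p = 0.755, limma). THI3, a relative of pyruvate decarboxylase that acts as a sensor of thiamine pyrophosphate, read 9.87, 10.09 and 10.06 in P5 and 10.27, 10.29 and 10.09 in P5-EM. It had a difference of 0.21 (95% interval -0.08 to 0.50, adjusted p = 0.265, limma). These intervals leave room for changes of less than 2-fold in either gene.

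PET18 is a gene whose expression follows the thiamine genes and whose protein has no settled role. Its log2 signal was 7.70, 7.99 and 8.03 in P5 and 8.29, 8.27 and 7.37 in P5-EM. P5-EM replicates 1 and 2 were above every P5 array and replicate 3 was below every one, so that the mean difference was 0.07 (SE 0.26, 95% interval -0.56 to 0.70, adjusted p = 0.868, limma) with an SD of 0.52 in P5-EM. Without P5-EM replicate 3 it was 0.37 (adjusted p = 0.129), and without P5-EM replicate 1 or 2 it was negative (-0.087 and -0.075).

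In all, 6 of the 10 genes had a negative and 4 a positive difference. The strains did not overlap at 5 of them, 1 higher and 4 lower in P5-EM. Over all probe sets, 45.7% did not overlap, 21.1% higher and 24.6% lower. The 8 genes that did not pass had adjusted p values from 0.122 to 0.868. For all of these 8, the 95% interval lay within 2-fold in both directions.

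The order of the replicates within a strain differed between these genes and the array as a whole, in both strains. P5-EM replicate 3 had the lowest signal of the 3 P5-EM arrays for 7 of the 10 genes, in THI80 by a negligible margin, whereas it was the lowest for 27.2% of all probe sets. P5-EM replicate 1, the array that stood apart, was the lowest for 2 of the 10 and for 49.9% of all probe sets, and the highest for 7 of the 10 and for 35.8%. In P5, replicate 1 was the lowest array for 6 of the 10 genes and for 32.6% of all probe sets. The median SD of the 10 genes was 0.19 in P5-EM, below the 0.22 of all probe sets, and 0.16 in P5, above their 0.12. Set against the mean of the P5 arrays, the median of the 10 genes was -0.06 on P5-EM replicate 1, -0.18 on replicate 2 and -0.36 on replicate 3, while the median of all probe sets was -0.09, -0.01 and 0.02. The largest gaps between P5-EM arrays were in PHO3, PET18, THI4 and THI20. What distinguished these cultures is not recorded in the labels, and its part in the result was not tested.

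**Figure D3:**
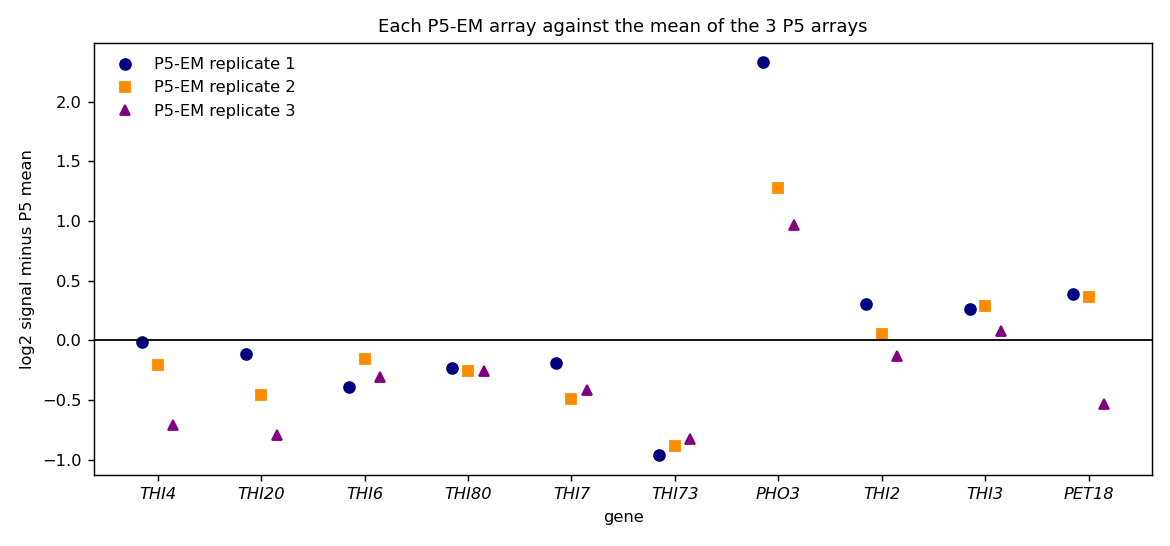
Log2 signal of each P5-EM array minus the mean of the 3 P5 arrays (vertical axis) for the 10 genes (horizontal axis); each symbol is 1 P5-EM replicate and the line at 0 is the P5 mean. P5-EM replicate 3 is the lowest of the 3 for 7 genes, from THI4 (-0.71) and THI20 (-0.79) to PHO3 (0.97).

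Taking THI4 as the reference gene, the 5 genes whose log2 signal over the 6 arrays was most like it were PHO8, UBC7, ROG1, PRS5 and HXT1, with Pearson's r from 0.969 to 0.989. PHO8 encodes the alkaline phosphatase of the vacuole and HXT1 a low-affinity glucose transporter. None of the 5 is a thiamine gene, and none passed the test between strains (adjusted p from 0.198 to 0.552, limma). Within the thiamine genes, THI20 had the highest r with THI4 (0.879, rank 42 of all probe sets), followed by THI7 (0.716, rank 260) and PET18 (0.705, rank 283), and PHO3 had a negative one (-0.21). These values mix the difference between the strains with the spread inside each. After each strain's mean was taken out, r with THI4 was 0.960 for PET18, 0.818 for THI2 and 0.811 for THI20. It was 0.779 for PHO3, whose sign thus turned, 0.758 for THI3 and 0.500 for THI7. For THI73, THI6 and THI80 it was -0.09, -0.08 and -0.14. These values describe 6 arrays that share their strains and carry no test. The values without the strain means were computed for the thiamine genes only, so their rank among all probe sets is not known. The SD of THI4 itself was 0.36 in P5-EM and 0.07 in P5.

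Several members have close relatives in the genome, whose transcripts could add to a probe set's signal if the probes do not tell them apart. None of the 10 probe sets carries the suffix by which the array marks probes shared between genes. PHO3 lies next to PHO5, the main phosphate-repressed acid phosphatase, and is very similar to it in sequence. PHO5 read 9.09, 8.60 and 8.56 in P5 and 9.76, 9.28 and 8.96 in P5-EM, with P5-EM replicate 1 the highest array, as in PHO3. The strains overlapped, and the difference of 0.58 (SE 0.24, 95% interval 0.00 to 1.16, adjusted p = 0.143, limma) did not pass. Without P5-EM replicate 1 the PHO5 difference was 0.37. Whether signal from PHO5 transcripts took part in the PHO3 result was not tested. PHO11, a further acid phosphatase, whose probe set is marked as shared, rose by 0.67 (SE 0.17, adjusted p = 0.0470, limma), from 5.98, 5.94 and 5.60 to 6.28, 6.50 and 6.76. This call held without P5-EM replicate 1 (adjusted p = 0.00917) and ended without any other single array (0.0734 to 0.174) and with the methods' t-test (0.120). Here P5-EM replicate 1 was the lowest of its strain, unlike in PHO3 and PHO5. DIA3, a related gene, had a difference of -0.07 (adjusted p = 0.864). Of the 5 listed relatives of PHO3, 3 were measured, of which 2 did not pass, 1 rose and 0 fell, beside 6.09% of all probe sets that rose and 7.78% that fell.

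THI7 has 2 relatives, THI72 and NRT1. NRT1, also known as THI71, encodes a transporter of nicotinamide riboside that carries thiamine with low affinity. Its log2 signal was 7.56, 7.39 and 7.21 in P5 and 9.62, 8.83 and 8.57 in P5-EM. The strains were far apart, with P5-EM replicate 1 the highest array, and the difference of 1.62 (SE 0.27, adjusted p = 0.0188, limma) was 1.32 without it (adjusted p = 0.00130). The call ended with the methods' t-test (adjusted p = 0.0790), but held with it adjusted over the 2-fold probe sets only (0.0239). THI72 read 7.86, 7.72 and 7.77 in P5 against 8.36, 8.14 and 8.08 in P5-EM, a difference of 0.41 (SE 0.12, adjusted p = 0.0679, limma). All its P5-EM arrays were above all P5 arrays, but it did not pass. The transporter genes of this family thus had differences of either sign, -0.37 for THI7 and positive values for both relatives.

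THI21 and THI22, relatives of THI20, had differences of 0.04 and 0.11 (adjusted p = 0.874 and 0.652, limma) beside the -0.45 of THI20. The pyrimidine branch is made by THI5, THI11, THI12 and THI13, near-identical genes. The probe set under the name of THI13 is marked as shared between genes, and it read 8.24, 7.67 and 7.66 in P5 and 8.16, 7.71 and 7.25 in P5-EM. The strains overlapped widely, at a difference of -0.15 (SE 0.27, adjusted p = 0.709, limma), and P5-EM replicate 3 was again the lowest array. This value cannot be assigned to THI13 alone.

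**Figure D4:**
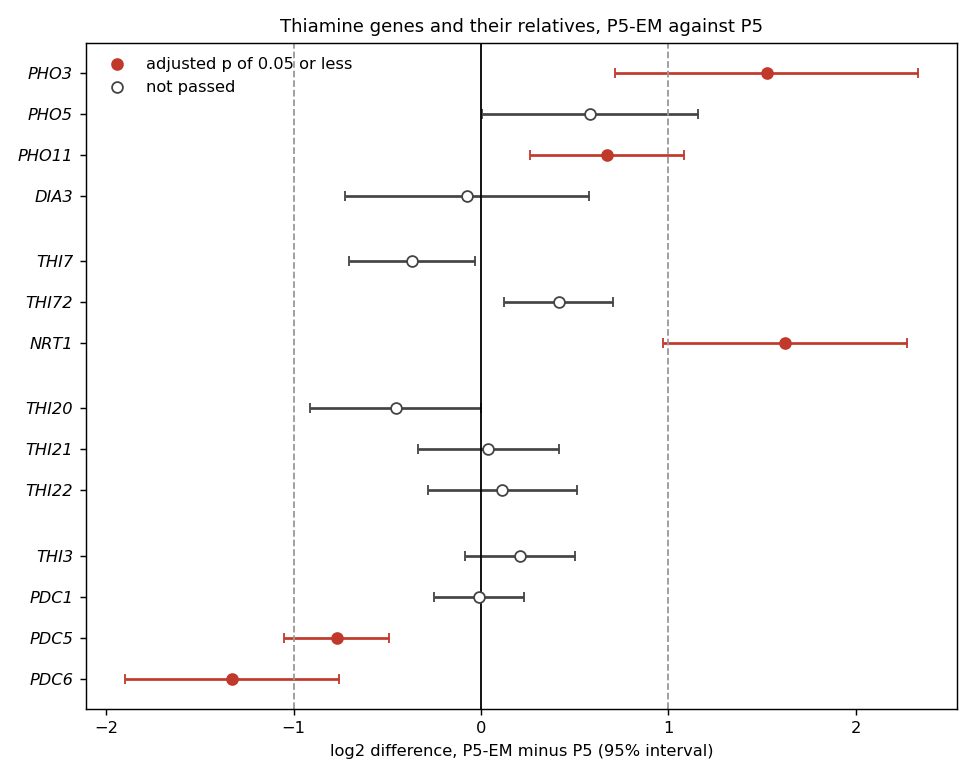
Difference in log2 signal, P5-EM minus P5 (horizontal axis), with its 95% interval from limma, n = 3 per strain, for the thiamine genes PHO3, THI7, THI20 and THI3, each above its sequence relatives; filled red points passed. NRT1 (1.62) and PHO11 (0.67) are higher and PDC5 (-0.77) and PDC6 (-1.33) lower in P5-EM, while THI7, THI20 and THI3 did not pass.

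TPC1, which encodes the carrier of thiamine pyrophosphate into mitochondria, was higher in P5-EM. It read 7.16, 7.29 and 7.16 in P5 and 8.10, 7.98 and 7.91 in P5-EM, with tight replicates in both strains. Its difference was 0.79 (SE 0.11, 95% interval 0.52 to 1.06, adjusted p = 0.0129, limma), or 173% of the P5 signal. PDC2, the regulator of thiamine and pyruvate decarboxylase genes that acts with THI2 and THI3, read 7.26, 7.31 and 7.19 in P5 and 5.82, 7.13 and 7.22 in P5-EM. P5-EM replicate 1 was far below all other arrays, and the difference of -0.53 did not pass (SE 0.36, adjusted p = 0.333, limma). Without that array it was -0.08. Of 11 further genes of the pathway and its control, 8 were measured, of which NRT1 and TPC1 were higher, 0 lower and 6 did not pass, with a median difference of 0.08. Over all probe sets 6.09% passed as higher and 7.78% as lower. NRT1 and TPC1 did not pass without any single P5 array or without P5-EM replicate 2 (adjusted p from 0.0536 to 0.0964, limma).

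Of 10 genes for enzymes that use thiamine pyrophosphate, 8 did not pass and 2 fell (0 rose), at a median difference of 0.02, beside 7.78% of all probe sets that fell. Both lower ones encode pyruvate decarboxylases, to which THI3 is related. PDC6, a minor form, read 9.07, 9.04 and 8.80 in P5 and 7.25, 7.52 and 8.16 in P5-EM. All its P5-EM arrays were lower, P5-EM replicate 3 the least so, and the difference was -1.33 (SE 0.24, adjusted p = 0.0211, limma). Without P5-EM replicate 1 the PDC6 difference was -1.13 (adjusted p = 0.00578, limma). PDC5, a form known to be repressed by thiamine, fell from 12.00, 11.95 and 12.00 to 11.08, 11.20 and 11.37 (difference -0.77, SE 0.12, adjusted p = 0.0150, limma). Neither passed without any single P5 array or without P5-EM replicate 2 (adjusted p from 0.0599 to 0.0930, limma). PDC6 did not pass with the methods' t-test (adjusted p = 0.0844), but did with it adjusted over the 2-fold probe sets only (0.0264). PDC1, the main form, was at 12.40 ± 0.04 in P5 and 12.40 ± 0.05 in P5-EM (SD, n = 3), with a 95% interval of the difference from -0.25 to 0.23. For the transketolase genes the differences were -0.03 (TKL1, adjusted p = 0.896) and 0.73 (TKL2, adjusted p = 0.189), the latter resting on P5-EM replicate 3, which read 10.26 against 8.97 and 9.15 in P5-EM replicates 1 and 2. The TKL2 difference was 0.33 when that array was left out.

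**Figure D5:**
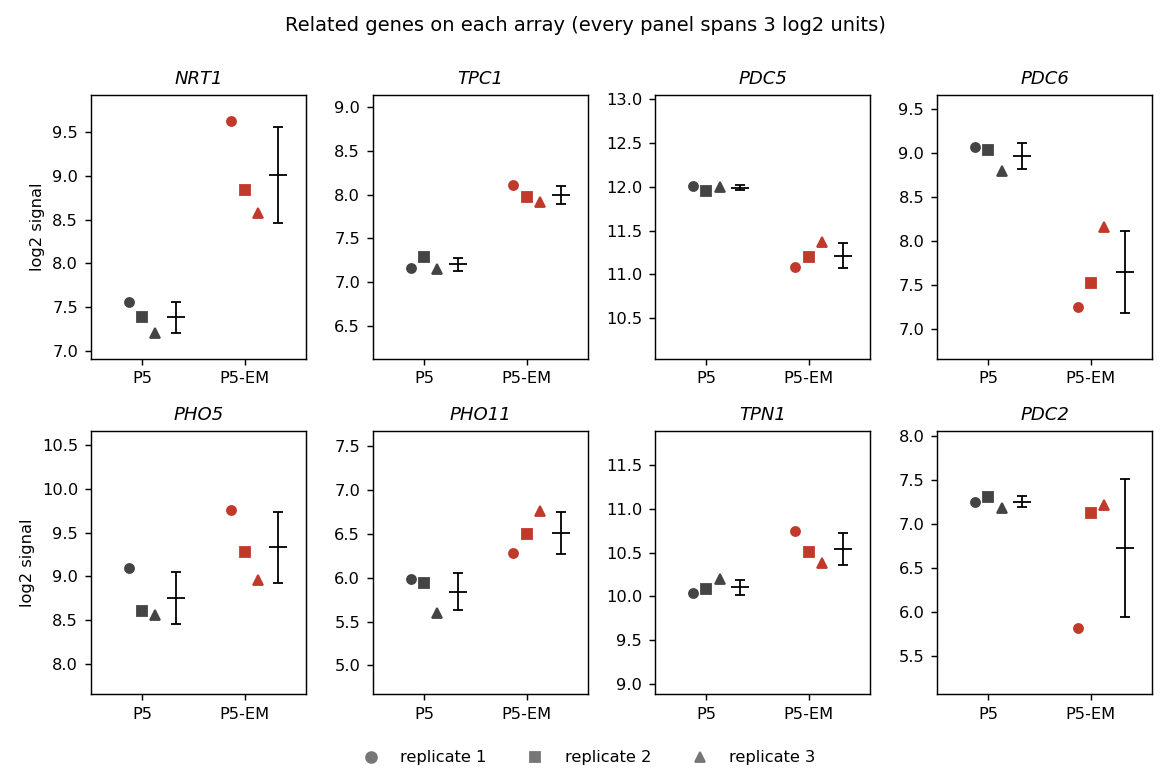
Log2 signal (vertical axis) of 8 related genes on the 3 P5 arrays (grey) and the 3 P5-EM arrays (red), with symbols for the replicate and a bar for the mean with its SD, n = 3. NRT1, TPC1 and PHO11 are higher and PDC5 and PDC6 lower on every P5-EM array, whereas PDC2 is far lower on P5-EM replicate 1 (5.82) than on the others.

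Vitamin B6 supplies a precursor of the thiamine pyrimidine ring in yeast, and some of its genes lie beside the THI5 family. Of the 10 listed genes 8 were measured, and none passed limma's test (3 at an unadjusted p under 0.05, 7 with a positive difference, median 0.28). Over all probe sets 34.4% had an unadjusted p under 0.05 and 46.4% a positive difference. BUD16, a putative pyridoxal kinase gene, read 8.23, 8.21 and 8.27 in P5 and 8.91, 9.17 and 8.50 in P5-EM, a difference of 0.62 (SE 0.18, adjusted p = 0.0642, limma). It passed without P5-EM replicate 1 or 3 (adjusted p = 0.0471 and 0.0182, limma) and with array weights (0.00302). Of all probe sets 26.6%, 18.3% and 39.3% passed under these 3 settings. BUD16 did not pass in 10 of 13 settings, among them the methods' t-test (adjusted p = 0.145) and the replicate block (0.109, limma). TPN1, the gene of the vitamin B6 transporter, read 10.03, 10.08 and 10.19 against 10.74, 10.51 and 10.38, a difference of 0.44 (SE 0.13, adjusted p = 0.0692, limma). It passed with array weights or an intensity trend (adjusted p = 0.0130 and 0.0481, limma), when 39.3% and 13.7% of all probe sets passed. TPN1 did not pass in 11 of 13 settings. The strains did not overlap at either gene. SNZ1 and SNO1 of vitamin B6 synthesis had differences of -0.11 and 0.05 (adjusted p = 0.509 and 0.865).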

How the data were processed

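Yeast RNA from 6 cultures was amplified and hybridised to Affymetrix Yeast Genome 2.0 arrays. The series' table holds deposited log2 signals of each probe set, made by the authors with GCOS and RMA in Partek (background correction, normalization between arrays, summary of probes), without pooling replicates. They were used as they stand, and arrays have no depth, so their number limits the precision.

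Of 10928 probe sets, 5498 with a single S. cerevisiae gene in the platform annotation, matched by gene ID, were tested. Left out were 1746 for S. pombe, 1 with several genes and 3683 not in that annotation, and 12 symbols were updated. Background was set per array at the level under which 95% of the S. pombe probe sets lay, 2.28 to 2.59. A gene was read from its probe set with the highest mean. No sequences were used, and coordinates served only to find the neighbours of PHO3.

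P5-EM was compared with P5 in limma 3.58.1 (R 4.3.3; lmFit and eBayes, two-sided, no covariates) with Benjamini-Hochberg adjustment over all 5498 probe sets; 95% intervals are unadjusted. The code was tested on simulated data. An exact permutation test of 3 arrays against 3 cannot give a p under 0.1. The members and lists were chosen with earlier results of these data known. Named were all 10 genes, listed companion genes that passed, or otherwise the 2 with the lowest adjusted p in a list, and the 5 genes most like THI4. Further relatives and list members (THI72, THI21, THI22, THI13, PDC2, PDC1, TKL1, TKL2, PHO5, DIA3, SNZ1 and SNO1) were named after their values were seen. Replicate numbers were not taken to pair the samples in the main test. Alternatives were the methods' t-test, an intensity trend, array weights, quantile normalization, median centring, a filter on dim probe sets, the replicate number as a block and each array left out.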

Additional observations from a re-analysis of the deposited data

How the results depend on the processing

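Against 2 thiamine genes and 763 probe sets called, array weights (from limma's gene-by-gene method, as its likelihood method did not converge) called 4 and 2160. The methods' t-test called 0 thiamine genes (3 at an unadjusted p under 0.05) and 163 probe sets, 55 of them at 2-fold against 216. Adjusted over the 2-fold probe sets only, which is nearer to the methods' wording, it called 190. Among them were PHO3 (adjusted p = 0.0478), NRT1 (0.0239) and PDC6 (0.0264). This adjustment was added after seeing the data. With the replicate number as a block, 208 probe sets and 2 thiamine genes passed (PHO3 and THI73 both at adjusted p = 0.0482). The deviations of same-numbered arrays from their strain means correlated at -0.03, -0.28 and -0.02. With 3 arrays per strain, these values cannot decide whether the numbers mark pairs. Leaving out 1 array in turn gave 0 to 1462 probe sets at any fold, 0 to 419 at 2-fold and 0 to 4 thiamine genes. The 0 counts over all probe sets were those without P5 replicate 2 or 3. Without P5 replicate 2 or 3 or P5-EM replicate 2 it called 0 thiamine genes (2, 2 and 3 at an unadjusted p under 0.05, and 0 by the methods' t-test each). Without P5-EM replicate 1 the 4 were PHO3, THI73, THI7 and THI20, when 26.6% of all probe sets passed. The median of the 10 genes stayed between -0.31 and -0.18 under every setting run. THI2 and PET18, with differences near 0, changed sign, though neither passed under any setting. THI2 came to -0.028 with array weights and ranged from -0.038 to 0.18 when single arrays were left out. It was negative without P5 replicate 1 (-0.028) or P5-EM replicate 1. PET18 ranged from -0.087 to 0.37 in the same way, and was negative when P5 replicate 1 (-0.034), P5-EM replicate 1 or P5-EM replicate 2 (-0.075) was missing. PHO11 did not pass with an intensity trend or a replicate block (adjusted p = 0.0540 and 0.112). With the block TPC1, PDC5 and PDC6 did not pass either (adjusted p = 0.0514, 0.0549 and 0.0588). The cause of these changes was not tested. No gene named with a test had a second probe set, so that alternative gave no values.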

Other observations

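The array also holds probe sets for thiamine genes of the fission yeast S. pombe, which these cells lack; they were picked by symbol after the table had been seen. Those under the names nmt1, thi1, thi2, thi4, thi5, pho4 and car1 had log2 signals between 0.67 and 2.12 over all 6 arrays, below the background level of 2.28 to 2.59. That level was set from the S. pombe probe sets, 95% of which lie under it, so this position was largely fixed in advance. The S. pombe gene nmt1 is the counterpart of the THI5 family, thi2 of THI4, and pho4 of the thiamine-repressed acid phosphatases. The lowest margin of a S. cerevisiae thiamine gene over the background of its array was 3.56, in THI80.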
